A study of Mus musculus with 15 samples.

Results

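The transcripts described here are 10 genes of the major histocompatibility complex (MHC) class I pathway, out of 19456 genes counted in sorted mouse monocytes and gut macrophages. They are the classical heavy chains H2-K1 and H2-D1, the nonclassical heavy chains H2-T23, H2-M3 and H2-M2, the light chain B2m, the peptide transporter subunits Tap1 and Tap2, the loading factor Tapbp, and the transcriptional coactivator Nlrc5. H2-M2 was chosen on its levels in these same libraries, so its values are given as a description with no test. The other 9 were chosen by symbol for their place in the pathway, with earlier results of these data known. All 10 symbols were found in the counts, and all 10 passed the filter on low counts.

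RNA was sequenced from 15 libraries of sorted cells from adult male wild-type C57BL/6 mice, for which the labels name no transgene and no treatment. There were 3 libraries of Ly6Chi monocytes from peripheral blood and 4 of each of 3 macrophage subsets of the small intestine, defined by surface Tim-4 and CD4: Tim-4-CD4- cells, cells with CD4 alone (Tim-4-CD4+), and cells with both (Tim-4+CD4+). Where 3 values follow each other for the macrophages, they are in this order, here named subset order. A library holds cells pooled from 3 mice, or from 4 mice in monocyte replicate 2. The macrophages had been gated as CD64+, Ly6C- and MHC class II+ cells, so class II genes and Ly6c2 differ from monocytes by the sort. Gut tissue had been treated with dithiothreitol and digested with an enzyme, while blood had been treated with a lysing buffer on ice. Differences between macrophages and monocytes therefore cannot be told apart from effects of tissue and isolation. The study compared the subsets with each other and with the monocytes, and found in other mice that blood monocytes replace the subsets at different rates. The labels do not say whether pools of different populations came from the same mice, and p-values measure the spread between these pools. The paper names 4 independent sorts for the macrophages and 3 for the monocytes. The subsets of a sort may therefore share mice, and the main fit took the pools as unpaired.

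Libraries held 39388763 to 151510641 counts on genes. Levels are in CPM (reads scaled to a fixed library size, with library sizes adjusted by the TMM method). The summed level of 7 macrophage markers was 3807 to 4149 CPM in monocytes and 10501 to 14527 CPM in the macrophage libraries. Among them, C1qa was at 1.53 to 3.33 CPM in monocytes and at 3180 to 4715 CPM in the macrophage libraries. Not all of them rose: Cd68 averaged 565 CPM in monocytes and 499, 501 and 528 CPM in subset order. Fcgr1, the gene of the sorted protein CD64, averaged 279 CPM in monocytes and 300, 274 and 268 CPM in subset order. Timd4, the gene of the sorted protein Tim-4, ran from 336 to 390 CPM in Tim-4+CD4+ macrophages and at most 4.47 CPM elsewhere. The summed level of 5 Ly6Chi monocyte markers was 5666 to 8350 CPM in monocytes, 555 to 829 CPM in the Tim-4-CD4- subset, 75.8 to 134 CPM with CD4 alone, and 14.4 to 26.1 CPM with both proteins. Markers of other cells were low but not at 0 in the macrophage libraries. The sum of 5 dendritic cell markers was 26.5 to 65.0 CPM, with the dendritic cell genes Xcr1 at 1.78 to 4.22 CPM and Flt3 highest, at 17.9 CPM, in Tim-4-CD4- replicate 3. The sum of 5 T cell markers was at most 9.63 CPM and that of 7 epithelial markers at most 30.3 CPM, while 5 B and plasma cell markers summed to 202 to 390 CPM. The sum of 4 mesenchyme and endothelium markers was 38.6 to 52.9 CPM in Tim-4+CD4+ macrophages and at most 33.8 CPM in the other subsets. Their part in the results below was not tested.

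MHC class I molecules are cell-surface complexes of a heavy chain, B2m and a short peptide, which they display to CD8 T cells and natural killer cells. Peptides cut from cytosolic proteins by the proteasome are carried into the endoplasmic reticulum by the TAP transporter, made of Tap1 and Tap2, and are loaded onto heavy chains with the help of tapasin, the product of Tapbp. NLRC5 drives transcription of class I genes together with factors that bind a shared promoter module, and interferons raise most genes of the pathway.

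Part of that module is printed here because it is the regulatory sequence known to be shared by class I genes and B2m. The letters searched were the X2-box core TGACG, 20 bases of any kind, and the Y-box core ATTGG, on both strands of the 250 bases before the RefSeq start (GRCm38.p6), and the spacing was taken from the promoters of the members. Both cores matched with 0 mismatches in H2-K1, H2-D1, H2-M3 and B2m, and such a match occurred in 30 of all 32851 promoters of this length, or 0.0913%. Because the spacing was fitted to the members, this share is no test of their matches. The best windows of H2-M2, H2-T23 and Tap1 had 2 mismatches, reached by 3457 of all promoters, and the best window of Tapbp had 3, reached by 65.7%. In the 7 windows below, with 0 or 2 mismatches, capitals mark the 5 bases aligned to each core.
H2-K1: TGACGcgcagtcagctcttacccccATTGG
H2-D1: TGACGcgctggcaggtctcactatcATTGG
H2-M3: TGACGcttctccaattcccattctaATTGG
B2m: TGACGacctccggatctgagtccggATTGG
H2-M2: TGACTatgctccaattctcattcctACTGG
H2-T23: TGATGcagtctcaattctcatttctGTTGG
Tap1: TGACGacagagggtcctgccctcaaTCTGG

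With positions counted from 1 at the 5′ end of the 30-base window and the base of the motif first, the substitutions were G5T and T27C in H2-M2, C4T and A26G in H2-T23, and A26T and T27C in Tap1. The windows lie at chr17:34000359-34000388 on the minus strand for H2-K1, 41 bases before the start, and chr17:35262993-35263022 on the plus strand for H2-D1, 101 bases before it. Those of H2-M3 and B2m lie on the plus strand at chr17:37270188-37270217, 46 bases before the start, and chr2:122147609-122147638, 78 bases before it. The window of H2-M2 is at chr17:37483619-37483648 on the minus strand, 94 bases before the start, that of H2-T23 at chr17:36032773-36032802 on the minus strand, 101 bases before it, and that of Tap1 at chr17:34187470-34187499 on the plus strand, 86 bases before it. In the GENCODE M21 annotation the windows of H2-D1 and H2-T23 fall in an exon of the same gene, that of Tap1 in an exon of Psmb9 on the opposite strand, and that of B2m within Patl2 on the opposite strand. A match of letters is a description and does not show that a factor binds.

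Nlrc5 (chromosome 8, 94434356 to 94527272, plus strand, GRCm38), the coactivator of class I genes, was lower in all 3 macrophage subsets than in monocytes. It was at 187, 122 and 135 CPM in the 3 monocyte libraries, at 112, 93.9, 97.4 and 87.7 CPM in the Tim-4-CD4- subset, at 101, 97.2, 86.4 and 102 CPM in the Tim-4-CD4+ subset, and at 71.9, 94.6, 97.7 and 92.2 CPM in the Tim-4+CD4+ subset. No macrophage library reached the lowest monocyte library. The log2 fold change against monocytes was -0.60 (SE 0.14, adjusted p = 0.0012, edgeR quasi-likelihood test with Benjamini-Hochberg adjustment over 15802 genes), -0.61 (SE 0.14, adjusted p = 0.00089) and -0.73 (SE 0.14, adjusted p = 0.00018) in subset order. With monocyte replicate 1 left out it was -0.37, -0.38 and -0.50 (adjusted p = 0.016, 0.013 and 0.0021). Between the subsets its differences lay from -0.13 to -0.02 on the log2 scale and did not pass the test. In bulk libraries such as these, fewer cells that hold a transcript and less of it per cell cannot be told apart.

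The classical heavy chains H2-K1 and H2-D1, which present peptides to CD8 T cells, did not change alike: H2-K1 rose in every subset, and H2-D1 did not pass the test. H2-K1 (chromosome 17, 33996017 to 34000347, minus strand) was at 2045, 1107 and 1423 CPM in monocytes, at 2737, 3141, 2624 and 2814 CPM in the Tim-4-CD4- subset, at 2320, 2603, 3055 and 2568 CPM in the Tim-4-CD4+ subset, and at 3234, 2417, 2668 and 2511 CPM in the Tim-4+CD4+ subset. Every macrophage library lay above every monocyte library, and the ranges of the 3 subsets overlapped. H2-K1 rose against monocytes by a log2 fold change of 0.89 (SE 0.17, adjusted p = 0.00019), 0.79 (SE 0.17, adjusted p = 0.00049) and 0.83 (SE 0.17, adjusted p = 0.00031) in subset order, that is 1.73-fold to 1.85-fold.

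H2-D1 (chromosome 17, 35262730 to 35267499, plus strand) was at 3645, 2369 and 2834 CPM in monocytes, at 2645, 3068, 2612 and 2585 CPM in the Tim-4-CD4- subset, at 2044, 2253, 2906 and 2266 CPM in the Tim-4-CD4+ subset, and at 2811, 2258, 2580 and 2311 CPM in the Tim-4+CD4+ subset. The ranges of the macrophages overlapped that of the monocytes in each subset. The log2 fold change against monocytes was -0.11 (95% interval -0.41 to 0.19, adjusted p = 0.50), -0.32 (-0.62 to -0.02, adjusted p = 0.056) and -0.24 (-0.54 to 0.06, adjusted p = 0.13) in subset order. The value in Tim-4-CD4+ macrophages passed the test without monocyte replicate 2, at -0.42 (adjusted p = 0.019), and without Tim-4-CD4+ replicate 3, at -0.42 (adjusted p = 0.014), and that in Tim-4+CD4+ macrophages without monocyte replicate 2, at -0.35 (adjusted p = 0.048).

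The ratio of H2-K1 to H2-D1 within a library, which does not depend on how libraries are scaled, was 0.561, 0.467 and 0.502 in monocytes. It ran from 1.00 to 1.09, from 1.05 to 1.16 and from 1.03 to 1.15 in subset order, with means of 1.04 ± 0.0359, 1.12 ± 0.0463 and 1.09 ± 0.0486 (SD, n = 4 each) against 0.510 ± 0.0475 (SD, n = 3). Monocytes therefore held about 2 times as many reads of H2-D1 as of H2-K1, and the macrophages about as many of one as of the other. This ratio was picked after its values were seen and was not tested. Only uniquely mapped reads were counted, and the class I heavy chains are alike in sequence, so reads shared between them are missing from both genes.

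B2m (chromosome 2, 122147686 to 122153083, plus strand), the light chain of every class I molecule in the list, did not pass the test in any comparison of the main analysis. It was at 3447, 2099 and 2326 CPM in monocytes, at 2741, 3197, 3376 and 3509 CPM in the Tim-4-CD4- subset, at 3005, 2977, 3235 and 2970 CPM in the Tim-4-CD4+ subset, and at 2832, 2891, 3029 and 2665 CPM in the Tim-4+CD4+ subset. Monocyte replicates 2 and 3 lay below every macrophage library and replicate 1 within or above them. The log2 fold change against monocytes was 0.29 (95% interval 0.00 to 0.58, adjusted p = 0.072), 0.22 (-0.07 to 0.50, adjusted p = 0.17) and 0.12 (-0.17 to 0.41, adjusted p = 0.43) in subset order. Without monocyte replicate 1 it was 0.56 (adjusted p = 0.00027), 0.49 (adjusted p = 0.00069) and 0.40 (adjusted p = 0.0032). The value in Tim-4-CD4- macrophages also passed the test with relative log expression scaling, at 0.32 (adjusted p = 0.041), with upper-quartile scaling, at 0.36 (adjusted p = 0.025), in DESeq2, at 0.32 (adjusted p = 0.035), and without Tim-4-CD4- replicate 1, at 0.37 (adjusted p = 0.033).

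**Figure D1:**
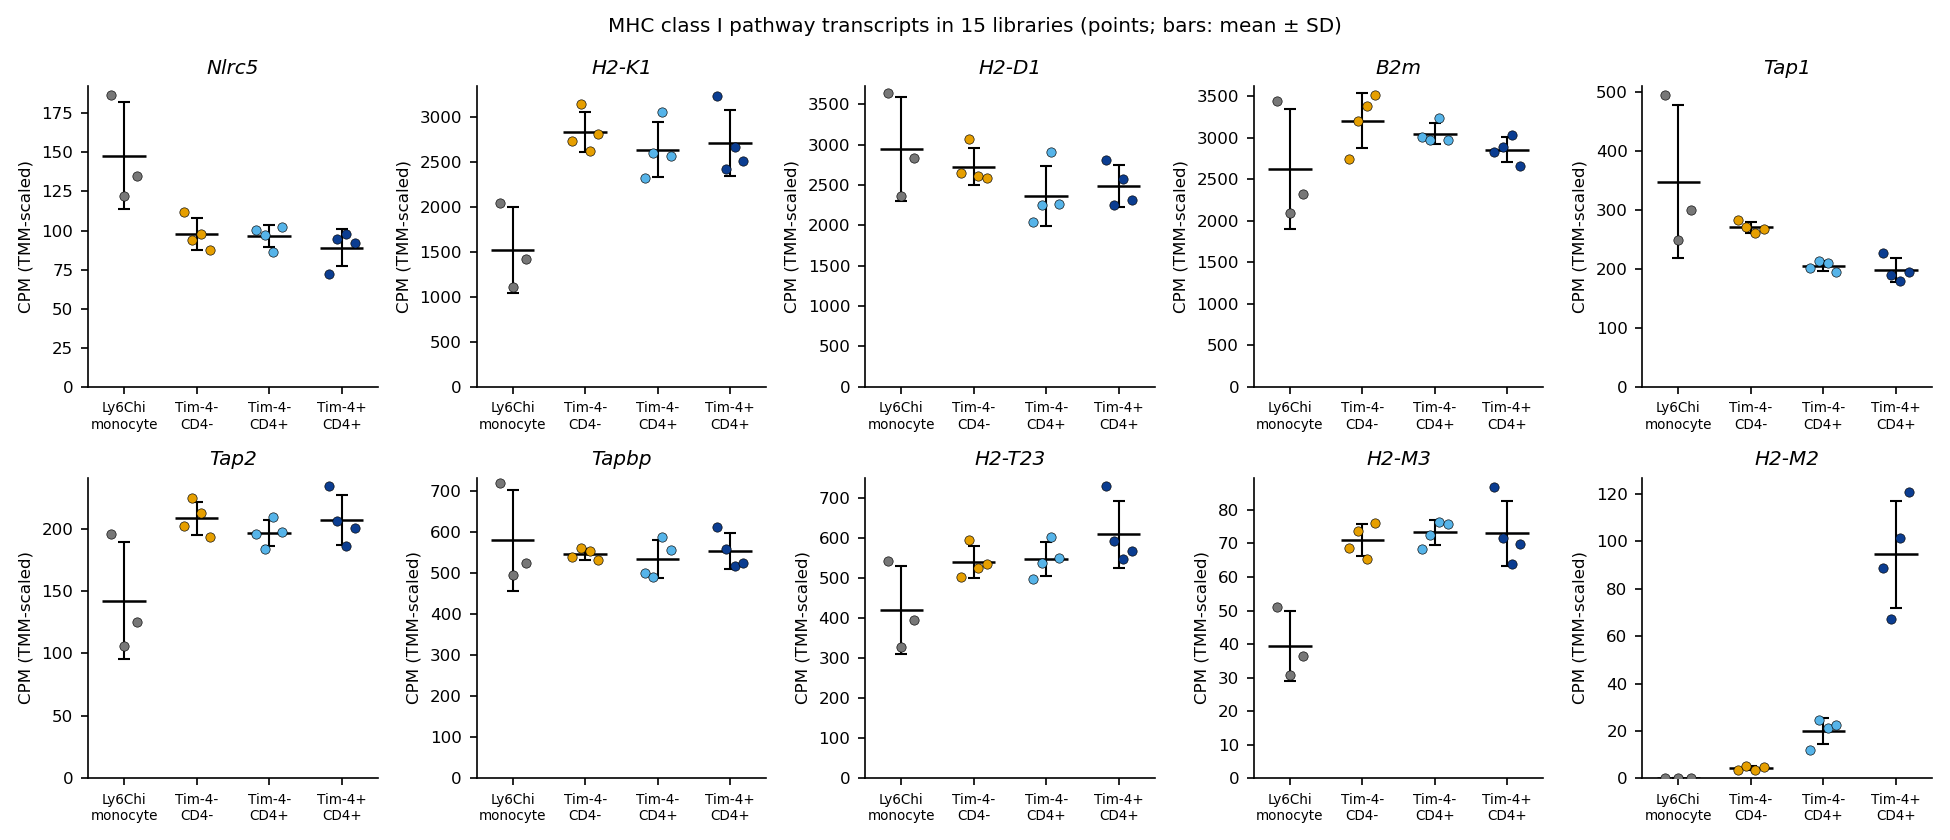
Levels in CPM of the 10 class I pathway genes (y axis, TMM-scaled, starting at 0 in each panel) in the 4 populations (x axis), with 1 point per library and the mean ± SD as bars. H2-K1 and H2-M3 lie higher in every macrophage library than in the 3 monocyte libraries, Nlrc5 lies lower, and H2-M2 climbs from near 0 in monocytes to 67.2 to 121 CPM in Tim-4+CD4+ macrophages.

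The 2 subunits of the peptide transporter went in opposite directions in both CD4+ subsets, where Tap1 fell and Tap2 rose against monocytes. Tap1 (chromosome 17, 34187553 to 34197225, plus strand) was at 495, 250 and 301 CPM in monocytes, at 283, 271, 260 and 269 CPM in the Tim-4-CD4- subset, at 202, 213, 210 and 196 CPM in the Tim-4-CD4+ subset, and at 226, 190, 179 and 196 CPM in the Tim-4+CD4+ subset. Both CD4+ subsets lay below every monocyte library and every Tim-4-CD4- library, while the Tim-4-CD4- range fell within that of the monocytes. The log2 fold change against monocytes was -0.76 (SE 0.16, adjusted p = 0.00051) in Tim-4-CD4+ and -0.82 (SE 0.16, adjusted p = 0.00027) in Tim-4+CD4+ macrophages, and without monocyte replicate 1 these values were -0.39 (adjusted p = 0.0044) and -0.45 (adjusted p = 0.0018). In Tim-4-CD4- macrophages it was -0.36 (95% interval -0.71 to -0.02, adjusted p = 0.059), and this value was -0.53 (adjusted p = 0.0061) without monocyte replicate 2, -0.44 without monocyte replicate 3 (just past the test, adjusted p rounding to 0.05) and 0.00 (adjusted p = 1.0) without monocyte replicate 1.

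Tap2 (chromosome 17, 34203527 to 34216321, plus strand) was at 195, 106 and 125 CPM in monocytes, at 202, 224, 212 and 194 CPM in the Tim-4-CD4- subset, at 196, 184, 210 and 197 CPM in the Tim-4-CD4+ subset, and at 234, 206, 186 and 201 CPM in the Tim-4+CD4+ subset. Monocyte replicates 2 and 3 lay below every macrophage library, and replicate 1 overlapped the low end of each subset. Tap2 rose by 0.55 (SE 0.15, adjusted p = 0.0052), 0.47 (SE 0.15, adjusted p = 0.013) and 0.54 (SE 0.15, adjusted p = 0.0052) on the log2 scale in subset order. The values were 0.87, 0.79 and 0.87 without monocyte replicate 1. In Tim-4-CD4+ macrophages the call was lost without monocyte replicate 2, at 0.32 (adjusted p = 0.067), and without monocyte replicate 3, at 0.41 (adjusted p = 0.053).

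The ratio of Tap1 to Tap2 within a library, also picked after its values were seen and not tested, was 2.43 ± 0.0945 (SD, n = 3) in monocytes and 1.31 ± 0.103, 1.05 ± 0.0763 and 0.956 ± 0.0244 in subset order (SD, n = 4 each). It was 2.35 to 2.53 in the 3 monocyte libraries and 0.921 to 1.40 in the 12 macrophage libraries. The lowest of the Tim-4-CD4- libraries, at 1.21, lay above the highest with CD4 alone, at 1.16. Tap1 shares its first bases with Psmb9 on the opposite strand, and 2 noncoding genes lie opposite Tap2. The libraries were stranded, but whether the count used strand is not given in the sources used here.

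Tapbp (chromosome 17, 33915899 to 33929292, plus strand), whose product tapasin holds class I molecules at the transporter, was at 721, 495 and 525 CPM in monocytes. It ran from 532 to 561 CPM, from 492 to 588 CPM and from 517 to 614 CPM in subset order. All of these ranges overlapped that of the monocytes. The log2 fold change against monocytes was -0.09 (95% interval -0.33 to 0.16), -0.12 (-0.37 to 0.13) and -0.07 (-0.31 to 0.18) in subset order (adjusted p = 0.54, 0.38 and 0.62). Without monocyte replicate 1 the 3 values were 0.12, 0.10 and 0.15 (adjusted p = 0.32, 0.42 and 0.21).

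**Figure D2:**
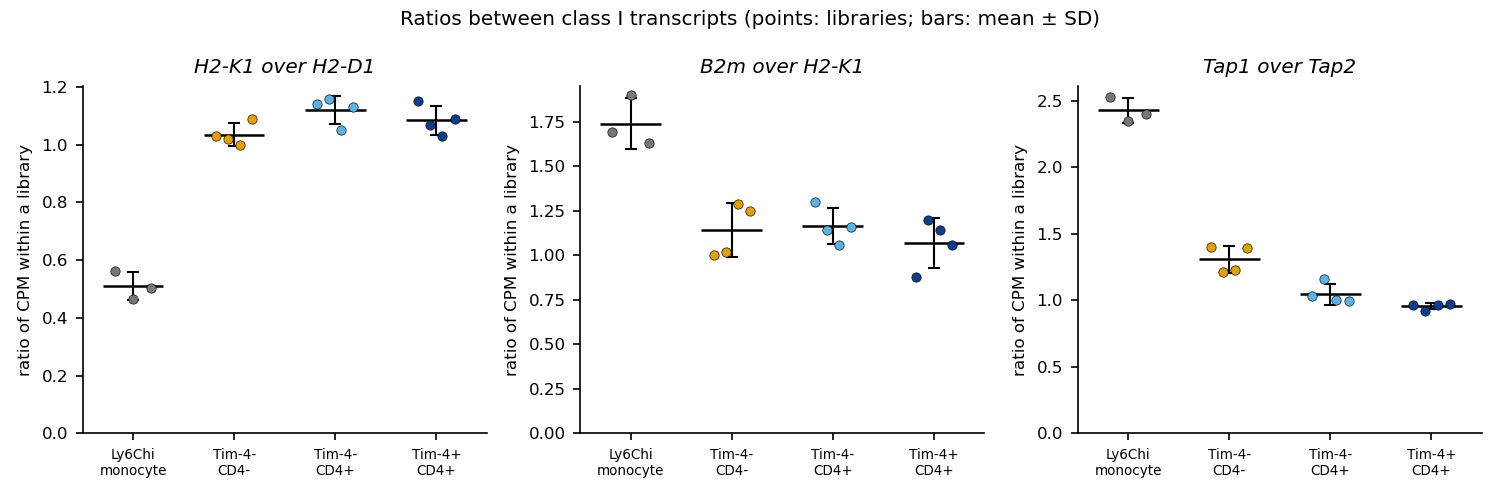
Ratios of CPM within a library (y axis, starting at 0) for H2-K1 over H2-D1, B2m over H2-K1 and Tap1 over Tap2 in the 4 populations (x axis), with 1 point per library and the mean ± SD as bars. H2-K1 over H2-D1 lies at 0.467 to 0.561 in monocytes and at 1.00 to 1.16 in macrophages, and Tap1 over Tap2 at 2.35 to 2.53 and at 0.921 to 1.40.

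The nonclassical heavy chains H2-T23 and H2-M3 were higher in the macrophages. H2-T23 (chromosome 17, 36029773 to 36032855, minus strand) encodes Qa-1, which presents signal peptides of other class I chains to natural killer cell receptors. It was at 542, 327 and 395 CPM in monocytes, at 502, 595, 525 and 535 CPM in the Tim-4-CD4- subset, at 498, 537, 601 and 549 CPM in the Tim-4-CD4+ subset, and at 730, 591, 546 and 567 CPM in the Tim-4+CD4+ subset. Monocyte replicate 1 overlapped both Tim-4- subsets and lay just under the lowest Tim-4+CD4+ library. H2-T23 rose by 0.36 (SE 0.14, adjusted p = 0.039), 0.38 (SE 0.14, adjusted p = 0.029) and 0.53 (SE 0.15, adjusted p = 0.0037) on the log2 scale in subset order. The values were 0.60, 0.63 and 0.79 without monocyte replicate 1. The call in Tim-4-CD4- macrophages was lost without monocyte replicate 2 (0.23, adjusted p = 0.19), without monocyte replicate 3 (0.34, adjusted p = 0.10), and without Tim-4-CD4- replicate 2 (0.32, adjusted p = 0.088) or 4 (0.37, adjusted p = 0.056). That in Tim-4-CD4+ macrophages was lost without monocyte replicate 2 (0.25, adjusted p = 0.14) or 3 (0.36, adjusted p = 0.078) and without Tim-4-CD4+ replicate 3 (0.34, adjusted p = 0.067). An antisense gene, A930015D03Rik, lies across H2-T23.

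H2-M3 (chromosome 17, 37270220 to 37274484, plus strand) presents peptides that begin with N-formyl methionine, as bacterial and mitochondrial proteins do. It was at 50.9, 30.8 and 36.4 CPM in monocytes, at 68.6, 73.7, 65.4 and 75.9 CPM in the Tim-4-CD4- subset, at 68.5, 72.4, 76.4 and 75.9 CPM in the Tim-4-CD4+ subset, and at 86.7, 71.5, 64.0 and 69.9 CPM in the Tim-4+CD4+ subset. Every macrophage library lay above every monocyte library, and the 3 subsets overlapped. H2-M3 rose by 0.85 (SE 0.14, adjusted p = 6.3e-05), 0.90 (SE 0.14, adjusted p = 3.1e-05) and 0.89 (SE 0.14, adjusted p = 3.1e-05) on the log2 scale, or 1.80-fold to 1.86-fold, and the call was kept in each of the alternatives run.

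H2-M2 (chromosome 17, 37480851 to 37483552, minus strand), a nonclassical heavy chain encoded in the same part of the MHC as H2-M3, differed most between the populations. Its raw counts in the 3 monocyte libraries were 9, 0 and 1 reads, and a count of 0 in replicate 2 allows a level of up to 0.0292 CPM, a limit that covers counting error only. It was at 3.63, 5.36, 3.49 and 4.92 CPM in the Tim-4-CD4- subset, at 12.1, 24.5, 21.1 and 22.5 CPM in the Tim-4-CD4+ subset, and at 88.9, 67.2, 101 and 121 CPM in the Tim-4+CD4+ subset. The 4 populations did not overlap. The means were 0.0274 ± 0.0328 CPM (SD, n = 3), 4.35 ± 0.930 CPM, 20.1 ± 5.46 CPM and 94.6 ± 22.5 CPM (SD, n = 4 each).

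H2-M2 was 4.61-fold higher in the Tim-4-CD4+ than in the Tim-4-CD4- subset, a log2 difference of 2.20 (SE 0.25), and with Tim-4 present as well it was another 4.71-fold higher, a difference of 2.24 (SE 0.24). Each step was larger than the spread between replicates of a subset. These are the levels for which the gene was chosen, and they carry no test. In the same 4 Tim-4+CD4+ libraries the mesenchyme and endothelium markers summed to 52.9, 41.1, 38.6 and 45.8 CPM, and their part in the level of H2-M2 was not tested. H2-M3 showed no such steps, with 70.9 ± 4.78, 73.3 ± 3.66 and 73.0 ± 9.70 CPM in the 3 subsets (SD, n = 4 each).

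Per kilobase of exon, which allows levels of different genes to be set side by side, the order of the class I genes in monocytes was B2m (3051 RPKM, reads per kilobase of exon in CPM), H2-D1 (1144), H2-K1 (519), Tapbp (160), H2-T23 (146), Tap1 (63.6), Tap2 (37.6), H2-M3 (27.4), Nlrc5 (17.4) and H2-M2 (0.0177). In Tim-4+CD4+ macrophages the order was B2m (3319 RPKM), H2-D1 (965), H2-K1 (922), H2-T23 (211), Tapbp (153), H2-M2 (61.0), Tap2 (54.7), H2-M3 (50.8), Tap1 (36.1) and Nlrc5 (8.46 to 11.5 over the libraries). H2-M2 thus went from the last place to the sixth, where its range over libraries, 43.3 to 78.0 RPKM, overlapped those of Tap2 (49.2 to 61.9) and H2-M3 (44.5 to 60.3). It stayed far below the classical chains, at 0.0275 to 0.0482 of the CPM of H2-K1 in the same library. H2-D1 and H2-K1 had overlapping ranges in each of the macrophage subsets and did not overlap in monocytes.

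Among 11797 expressed genes, those whose profile over the 15 libraries was most like that of H2-M2 were Dkk3, Pla2g2d, Gas1, Epor and Mpzl2. The measure was the mean absolute difference of log2 CPM after each gene was centred on its own mean, which was 0.382, 0.459, 0.574, 0.671 and 0.694 in that order. Dkk3, which encodes a secreted protein of the Dickkopf family, went from 0.0195 CPM in monocytes to 6.15, 17.5 and 103 CPM in subset order. Pla2g2d, a secreted phospholipase A2, went from 0.270 to 60.7, 194 and 949 CPM. Epor, the erythropoietin receptor, reached 41.1 CPM and Gas1 and the adhesion protein gene Mpzl2 reached 86.0 and 49.0 CPM in Tim-4+CD4+ macrophages. All of these genes share the libraries and the order of the populations with H2-M2.

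**Figure D3:**
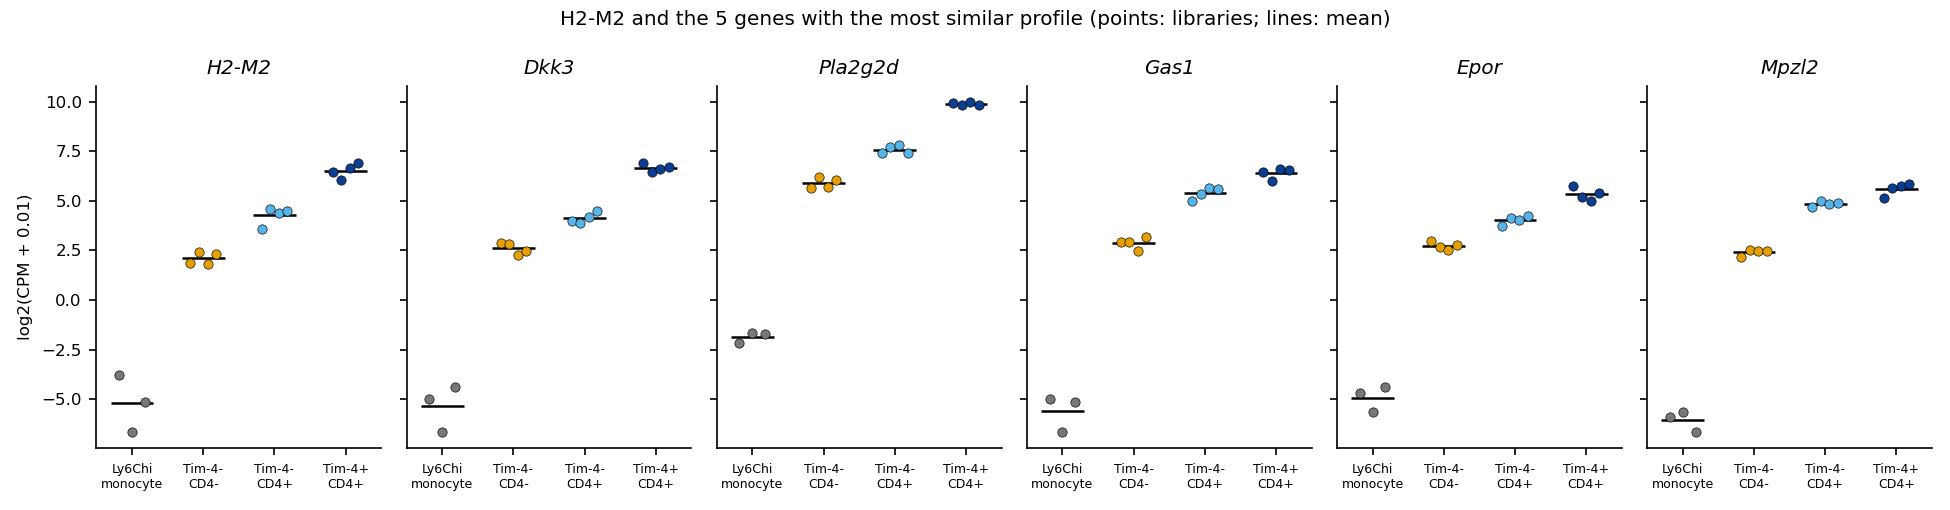
Levels of H2-M2 and of the 5 genes with the most similar profile, as log2(CPM + 0.01) (y axis), in the 4 populations (x axis), with 1 point per library and the mean as a line. In each panel the 4 populations climb from monocytes to Tim-4+CD4+ macrophages, from 0.0274 to 94.6 CPM on average for H2-M2 and from 0.270 to 949 CPM for Pla2g2d.

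Counted over the 9 genes that could be tested, 4 rose against monocytes in each subset, and these were H2-K1, H2-M3, H2-T23 and Tap2 each time. Nlrc5 was the 1 gene that fell in Tim-4-CD4- macrophages, and Nlrc5 and Tap1 were the 2 that fell in both CD4+ subsets. Of all 15802 genes tested, 37.3%, 39.1% and 39.5% were higher and 28.1%, 30.7% and 31.3% lower than in monocytes in subset order. The median log2 fold change over the 9 genes was 0.29, 0.22 and 0.12, beside 0.0812, 0.1094 and 0.0992 over all genes. The 3 comparisons share the same monocyte libraries.

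Between the macrophage subsets 1 of the 9 genes passed the test, in 1 comparison. Among 9 genes, such counts lie near the shares of all genes given here. None passed the test between both Tim-4- subsets (CD4+ relative to CD4-), where 4.52% of all genes were higher and 5.53% lower, and none between both CD4+ subsets (Tim-4+ relative to Tim-4-), where 2.07% were higher and 1.34% lower. In Tim-4+CD4+ relative to Tim-4-CD4- macrophages 0 were higher, beside 11.3% of all genes, and 1 was lower, beside 11.9%. That gene was Tap1, with a log2 fold change of -0.45 (SE 0.15, adjusted p = 0.039) and no overlap between the libraries. The call was lost with upper-quartile scaling (-0.40, adjusted p = 0.069), with no filter on low counts (-0.45, adjusted p = 0.053), and without any one of the Tim-4-CD4- libraries, of the Tim-4-CD4+ libraries, or of Tim-4+CD4+ replicates 2, 3 and 4, with values from -0.46 to -0.40 and adjusted p from 0.053 to 0.10.

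Tap1 also lay lower in every Tim-4-CD4+ library than in every Tim-4-CD4- library, with a log2 fold change of -0.40 (95% interval -0.72 to -0.08) that did not pass the test in the fit of all libraries (adjusted p = 0.11). It passed in a fit of these 2 subsets alone, at -0.39 (adjusted p = 0.0014), and without monocyte replicate 1, at -0.39 (adjusted p = 0.0087). The gene ran from 260 to 283 CPM and from 196 to 213 CPM in these subsets, against 250 to 495 CPM in monocytes. For the other 8 genes the differences between subsets lay from -0.20 to 0.17 on the log2 scale, and their 95% intervals reached no further than -0.48 and 0.46. H2-D1 gave the lowest of these, -0.20 (-0.48 to 0.07, adjusted p = 0.40), between both Tim-4- subsets, and H2-T23 the highest, 0.17 (-0.11 to 0.46, adjusted p = 0.39), in Tim-4+CD4+ relative to Tim-4-CD4- macrophages.

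**Figure D4:**
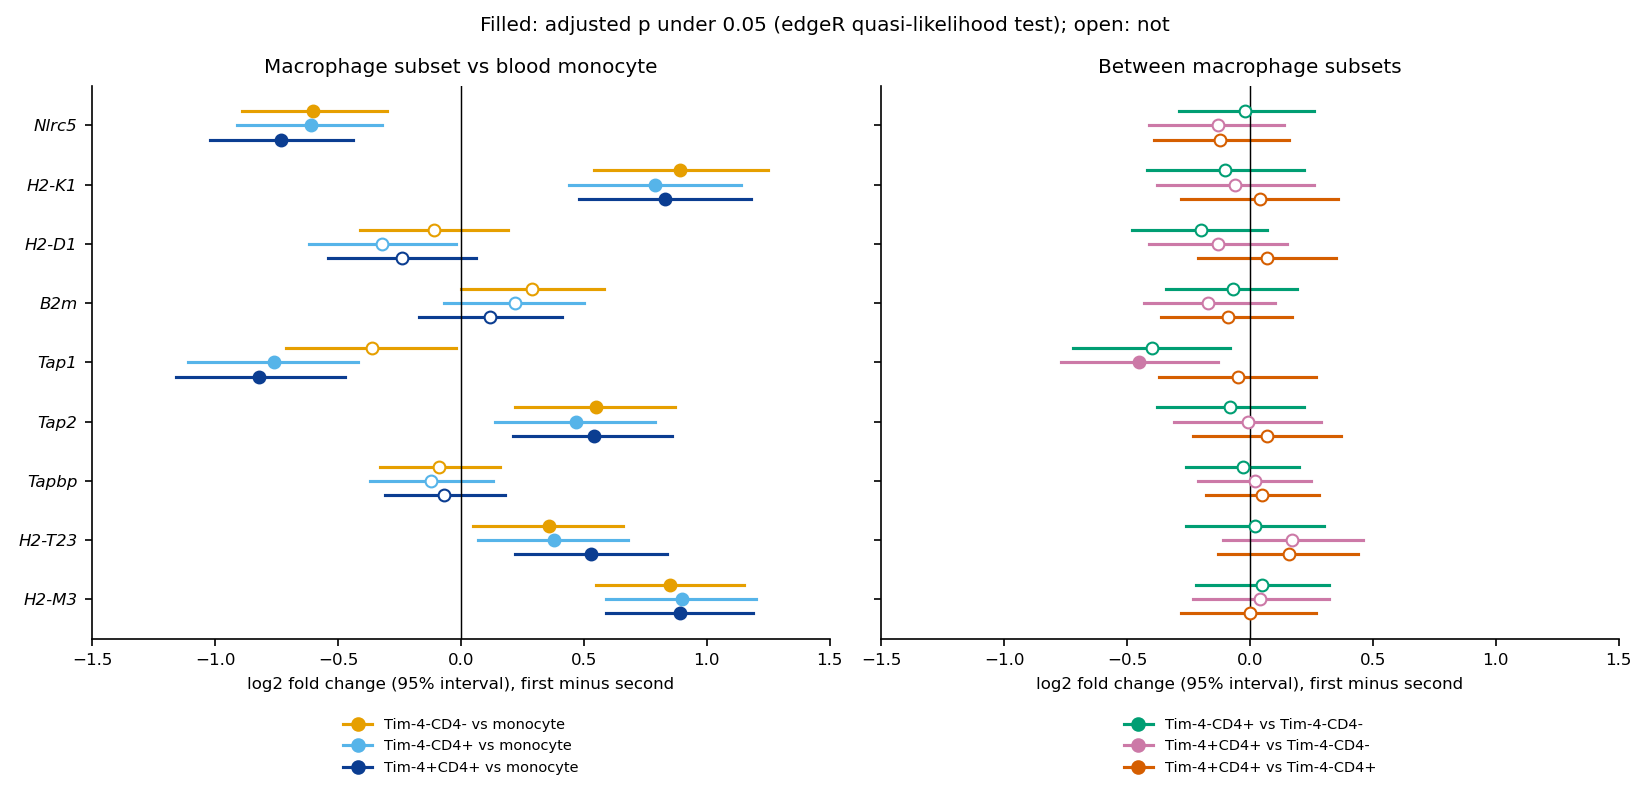
Log2 fold changes with 95% intervals (x axis) of the 9 tested class I genes (y axis) in each macrophage subset against monocytes (left) and between the subsets (right), filled where the adjusted p was under 0.05 in edgeR's quasi-likelihood test. H2-K1, H2-M3, H2-T23 and Tap2 lie to the right of 0 against monocytes and Nlrc5 to the left, and on the right side the single filled point is Tap1, at -0.45, in Tim-4+CD4+ relative to Tim-4-CD4- macrophages.

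The monocyte libraries differed among themselves in these genes more than the macrophage libraries did. All 9 of the expressed genes were highest in monocyte replicate 1 and lowest in replicate 2, an order shown by 23.3% of the 10651 genes with a mean of at least 1 CPM in monocytes. The level in replicate 1 was 1.40 to 1.80 times the mean of the other monocyte libraries, with a median of 1.51, beside a median of 1.03 over all genes, and 3.92% of all genes had a ratio as high as the lowest of the 9. Irf1, a transcription factor that interferon induces and that acts on class I promoters, was at 530, 168 and 214 CPM in monocyte replicates 1, 2 and 3, with replicate 1 at 2.78 times the mean of the others, the highest ratio among the regulators. Other regulators had lower ratios, with Ciita at 2.24, Stat2 at 1.54, Irf2 at 1.2, Irf9 at 1.08, Ifngr1 at 1.03 and Ifnar1 at 0.841. The immunoproteasome genes Psmb8, Psmb9 and Psmb10 were at 1.73, 1.81 and 1.7 times the mean of the other monocyte libraries. Of 43 other pathway genes with a monocyte mean of at least 1 CPM, 35 were highest in replicate 1, with a median ratio of 1.22, beside 45.9% of all genes. Ly6c2, the gene of the sorted surface protein, was at 1545, 820 and 912 CPM. Without monocyte replicate 1, 5 of the 9 genes rose in each subset, B2m being the added one, and 1, 2 and 2 fell in subset order. The shares of all genes that rose or fell in this fit are not given, so these counts cannot be set beside them.

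Of the macrophage libraries, Tim-4+CD4+ replicate 1 lay at an end of its subset for most of these genes. It was the highest of its subset for H2-K1, H2-D1, H2-M3, H2-T23, Tap1, Tap2 and Tapbp, at 1.15 to 1.28 times the mean of the other libraries, and the lowest for Nlrc5, at 0.758 times. The immunoproteasome genes Psmb8, Psmb9 and Psmb10 were at 1.42, 1.46 and 1.39 times that mean there. The peptidase genes Lnpep, Tpp2 and Erap1 were at 0.146, 0.634 and 0.645 times. None of the 9 genes was flagged in this library by the outlier check given below. The share of all genes that were highest or lowest in it was not counted. Without this library no call against monocytes was lost among the 9 genes.

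Other genes of the class I pathway came from 6 lists with 61 genes, of which 48 were in the counts and 46 could be tested. Against monocytes 15, 17 and 17 were higher and 14, 17 and 15 lower in subset order, with medians of 0.04, -0.03 and 0.01 on the log2 scale, beside 37.3%, 39.1% and 39.5% of all genes higher and 28.1%, 30.7% and 31.3% lower. No list was tested against another. Of the 110 calls in these genes over the 6 comparisons, 24 were lost in at least 1 alternative.

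Of 9 other class I heavy chains tested, 4 rose and 2 fell in each subset. Among the 4, H2-Q2 was near the floor, with a mean of 0.0413 CPM in monocytes and 0.339, 0.568 and 0.507 CPM in subset order. Of all genes, 37.3%, 39.1% and 39.5% were higher and 28.1%, 30.7% and 31.3% lower in subset order. The largest changes were in the Q region, whose nonclassical chains include Qa-2. H2-Q6 was at 36.1, 4.66 and 14.8 CPM in monocytes and at 118 to 233 CPM in the 12 macrophage libraries, a log2 fold change of 3.42, 3.01 and 2.87 (adjusted p = 5e-06, 1.4e-05 and 2.1e-05) in subset order. H2-Q7 rose by 2.24, 1.86 and 1.76 (adjusted p = 7.4e-05, 0.00032 and 0.00048) and H2-Q4 by 1.68, 1.62 and 1.65 (adjusted p = 1e-06, 1.3e-06 and 1e-06). Without monocyte replicate 1 the values were 4.40, 4.00 and 3.86 for H2-Q6 and 3.05, 2.68 and 2.58 for H2-Q7, and that library held 3.70 and 3.15 times the mean of the other monocyte libraries. H2-T24 fell by 2.10, 2.25 and 2.37 on the log2 scale (adjusted p = 2.6e-09, 9.2e-10 and 4.5e-10), from 128 to 165 CPM in monocytes to 23.7 to 42.8 CPM in macrophages. The other chain that fell, H2-T22, gave -0.39, -0.55 and -0.56. Without monocyte replicate 1 these calls were lost, at -0.09, -0.24 and -0.25 (adjusted p = 0.59, 0.12 and 0.11). The call of H2-T22 in Tim-4-CD4- macrophages was lost in 16 of 22 alternatives. H2-Q6 and H2-Q7 are nearly identical in sequence, so uniquely mapped reads place their counts with uncertainty.

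Of 4 class I-like chains that could be tested, which pair with B2m but have other ligands, 3, 4 and 4 rose in subset order. Of all genes, 37.3%, 39.1% and 39.5% were higher. Cd1d1, which presents lipids to natural killer T cells, rose by 3.05, 3.01 and 3.03 on the log2 scale (adjusted p = 3.1e-10, 3e-10 and 2.5e-10) and did not differ past the test between subsets. Hfe, a regulator of iron uptake, rose by 1.07, 1.19 and 1.09 (adjusted p = 2.2e-07, 5.9e-08 and 1.6e-07). Mr1, which presents microbial vitamin B metabolites, gave 0.33, 0.82 and 0.93 (adjusted p = 0.14, 0.0013 and 0.00044) in subset order, and was higher in Tim-4+CD4+ than in Tim-4-CD4- macrophages by 0.60 (adjusted p = 0.022), a call lost without Tim-4-CD4- replicate 2 (0.51, adjusted p = 0.066) or 3 (0.53, adjusted p = 0.069).

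Fcgrt, the neonatal Fc receptor that recycles immunoglobulin G and albumin, was the 1 gene of these lists that passed the test between both CD4+ subsets. It was at 42.4, 49.6 and 52.7 CPM in monocytes, at 182, 180, 162 and 181 CPM in the Tim-4-CD4- subset, at 172, 186, 220 and 197 CPM in the Tim-4-CD4+ subset, and at 393, 253, 284 and 253 CPM in the Tim-4+CD4+ subset. All libraries of Tim-4+CD4+ macrophages lay above those of the other subsets. The difference from Tim-4-CD4+ macrophages was 0.61 (adjusted p = 0.011) and that from Tim-4-CD4- macrophages 0.75 (adjusted p = 0.00045) on the log2 scale. The first of these did not pass in a fit of the 2 subsets alone (0.60, adjusted p = 0.054). Tim-4+CD4+ replicate 1 was at 1.49 times the mean of the others, and without it the differences were 0.44 (adjusted p = 0.014) and 0.58 (adjusted p = 0.00028). The mesenchymal marker Col1a1 was also highest in that library, at 39.5 CPM against 24.9 to 33.2 CPM in the others, and was higher than in Tim-4-CD4- macrophages by 0.72 (adjusted p = 0.01). Of the other markers of its list, Kdr was highest there too, at 5.53 CPM. Cdh5 was not, at 5.48 CPM against 6.35 CPM in replicate 3, and Pdgfra was lowest there, at 2.32 CPM. The part of these markers in the difference of Fcgrt was not tested.

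Among 10 genes of peptide supply 0, 1 and 1 rose and 3, 5 and 3 fell in subset order. Of all genes, 37.3%, 39.1% and 39.5% were higher and 28.1%, 30.7% and 31.3% lower. H13, the signal peptide peptidase that frees the signal peptides presented by Qa-1, fell by 1.37, 1.63 and 1.89 on the log2 scale in subset order (adjusted p = 2.5e-08, 2.3e-09 and 3.4e-10), and was lower in Tim-4+CD4+ than in Tim-4-CD4- macrophages by a log2 fold change of -0.52 (adjusted p = 0.0023). Tpp2, a cytosolic peptidase, fell by 0.36, 0.46 and 0.65 (adjusted p = 0.023, 0.0051 and 0.0003), the first of which was lost in 4 of 22 alternatives. The immunoproteasome subunits, which replace constitutive ones under interferon, did not move together. Psmb10 fell by 0.43, 0.57 and 0.41 (adjusted p = 0.03, 0.0056 and 0.035), Psmb8 gave -0.10, -0.43 and -0.32 (adjusted p = 0.62, 0.035 and 0.10), and Psmb9 gave 0.05, -0.01 and 0.14 (adjusted p = 0.83, 0.96 and 0.51). Without monocyte replicate 1, which was the highest monocyte library for these genes, none of the calls of Psmb10 (-0.10, -0.23 and -0.07, adjusted p = 0.53, 0.13 and 0.65) and Psmb8 (-0.08 in Tim-4-CD4+ macrophages, adjusted p = 0.63) was kept. Over all 22 alternatives, the calls of Psmb10 were lost in 6, 1 and 16 in subset order, and that of Psmb8 in 14. The aminopeptidase gene Npepps rose in both CD4+ subsets, by 0.30 (adjusted p = 0.048) without and 0.41 (adjusted p = 0.0096) with Tim-4, the first of which was lost in 6 alternatives.

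The constitutive proteasome subunits that these replace were lower. Psmb5 fell by 0.81, 0.99 and 0.92 on the log2 scale (adjusted p = 1.7e-05, 1.6e-06 and 3.3e-06) and Psmb7 by 0.33, 0.67 and 0.59 (adjusted p = 0.014, 3.7e-05 and 0.00012). Psmb6 gave -0.28, -0.54 and -0.35 (adjusted p = 0.069, 0.0013 and 0.023). When monocyte replicate 1 was left out, Psmb7 in Tim-4-CD4- macrophages was -0.20 (adjusted p = 0.15) and Psmb6 in Tim-4+CD4+ macrophages -0.22 (adjusted p = 0.19). Psmb7 was also lower in Tim-4-CD4+ than in Tim-4-CD4- macrophages, at -0.34 (adjusted p = 0.04), a call lost in 13 of 22 alternatives (adjusted p from 0.051 to 0.13).

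Of the chaperones that fold and load class I chains, 4 of 5 were higher in Tim-4-CD4- macrophages and 5 of 5 in the CD4+ subsets. Of all genes, 37.3%, 39.1% and 39.5% were higher in subset order. Hspa5, the chaperone BiP of the endoplasmic reticulum, rose most, by 3.57, 3.37 and 3.17 on the log2 scale (adjusted p = 1.2e-10, 1.8e-10 and 3.2e-10), from 314 to 448 CPM in monocytes to 2892 to 5418 CPM in macrophages. Calr, calreticulin, rose by 1.46, 1.35 and 1.31 (adjusted p = 1.6e-05, 3.1e-05 and 4e-05), and Pdia3, its partner in the loading complex, by 0.97, 0.97 and 0.89 (adjusted p = 2.5e-05, 2.3e-05 and 5.4e-05). Canx, calnexin, rose by 0.57, 0.62 and 0.47 (adjusted p = 0.0035, 0.0017 and 0.012). Tapbpl, a relative of tapasin that edits peptides, gave 0.32, 0.46 and 0.55 (adjusted p = 0.071, 0.011 and 0.0032), and in the CD4+ subsets 0.80 and 0.89 without monocyte replicate 1. Its call in Tim-4-CD4+ macrophages was lost without monocyte replicate 2 (0.35, adjusted p = 0.055) or 3 (0.37, adjusted p = 0.053). Only the gut tissue had been treated with dithiothreitol before the sort. The part of this treatment in the chaperone levels was not tested.

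Among 15 regulators, 4, 3 and 3 rose in subset order and 7 fell in each subset. Of all genes, 37.3%, 39.1% and 39.5% were higher and 28.1%, 30.7% and 31.3% lower. Ciita, the class II counterpart of Nlrc5, was at 73.3, 23.8 and 41.5 CPM in monocytes and at 312 to 615 CPM in macrophages, which had been sorted as class II+, and rose by 3.53, 3.44 and 3.26 on the log2 scale (adjusted p = 1.8e-08, 2e-08 and 3.3e-08). Nlrc5 went the other way in the same libraries. Rfx5, a factor of the X box of both classes, rose by 1.36, 1.37 and 1.23 (adjusted p = 3e-07, 2.4e-07 and 7.8e-07). Ifngr1, a chain of the interferon gamma receptor, fell by 1.43, 1.77 and 1.88 (adjusted p = 1.6e-10, 8.7e-12 and 3.6e-12), from 686 to 731 CPM in monocytes to 178 to 281 CPM in macrophages. Stat2 fell by 1.09, 0.93 and 0.91 (adjusted p = 2.7e-06, 1.4e-05 and 1.8e-05) and Nfkb1 by 0.85, 1.14 and 1.22 (adjusted p = 3.7e-07, 7.9e-09 and 3e-09).

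Between subsets the regulators that passed the test were lower in the CD4+ subsets. Against Tim-4-CD4- macrophages, Ifngr1 was at -0.34 (adjusted p = 0.0086) with CD4 alone and -0.45 (adjusted p = 0.0004) with both proteins, Nfkb1 at -0.29 (adjusted p = 0.037) and -0.37 (adjusted p = 0.0038), Rela at -0.32 (adjusted p = 0.032) and -0.34 (adjusted p = 0.0099), and Ifnar2 at -0.22 (adjusted p = 0.049) and -0.26 (adjusted p = 0.0078). Ifnar1, a chain of the type I interferon receptor, and Irf2 were lower in Tim-4+CD4+ than in Tim-4-CD4- macrophages, at -0.47 (adjusted p = 0.002) and -0.34 (adjusted p = 0.011). Over the 46 genes, 5 were lower and 0 higher between both Tim-4- subsets, beside 5.53% and 4.52% of all genes. In Tim-4+CD4+ relative to Tim-4-CD4- macrophages 7 were lower and 2 higher, beside 11.9% and 11.3% of all genes. Between both CD4+ subsets 0 were lower and 1 higher, beside 1.34% and 2.07%. Of the 5 calls between both Tim-4- subsets, that of Ifngr1 was kept in each of the 22 alternatives run. The call of Ifnar2 was lost in 19 of them (-0.23 to -0.20, adjusted p from 0.061 to 0.14), that of Rela in 10 (-0.34 to -0.27, adjusted p from 0.05 to 0.12) and that of Nfkb1 in 9 (-0.31 to -0.24, adjusted p from 0.053 to 0.12), and without a filter on low counts only Ifngr1 passed. Against Tim-4-CD4- macrophages the calls of the regulators in the Tim-4+CD4+ subset were kept in each of the alternatives.

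**Figure D5:**
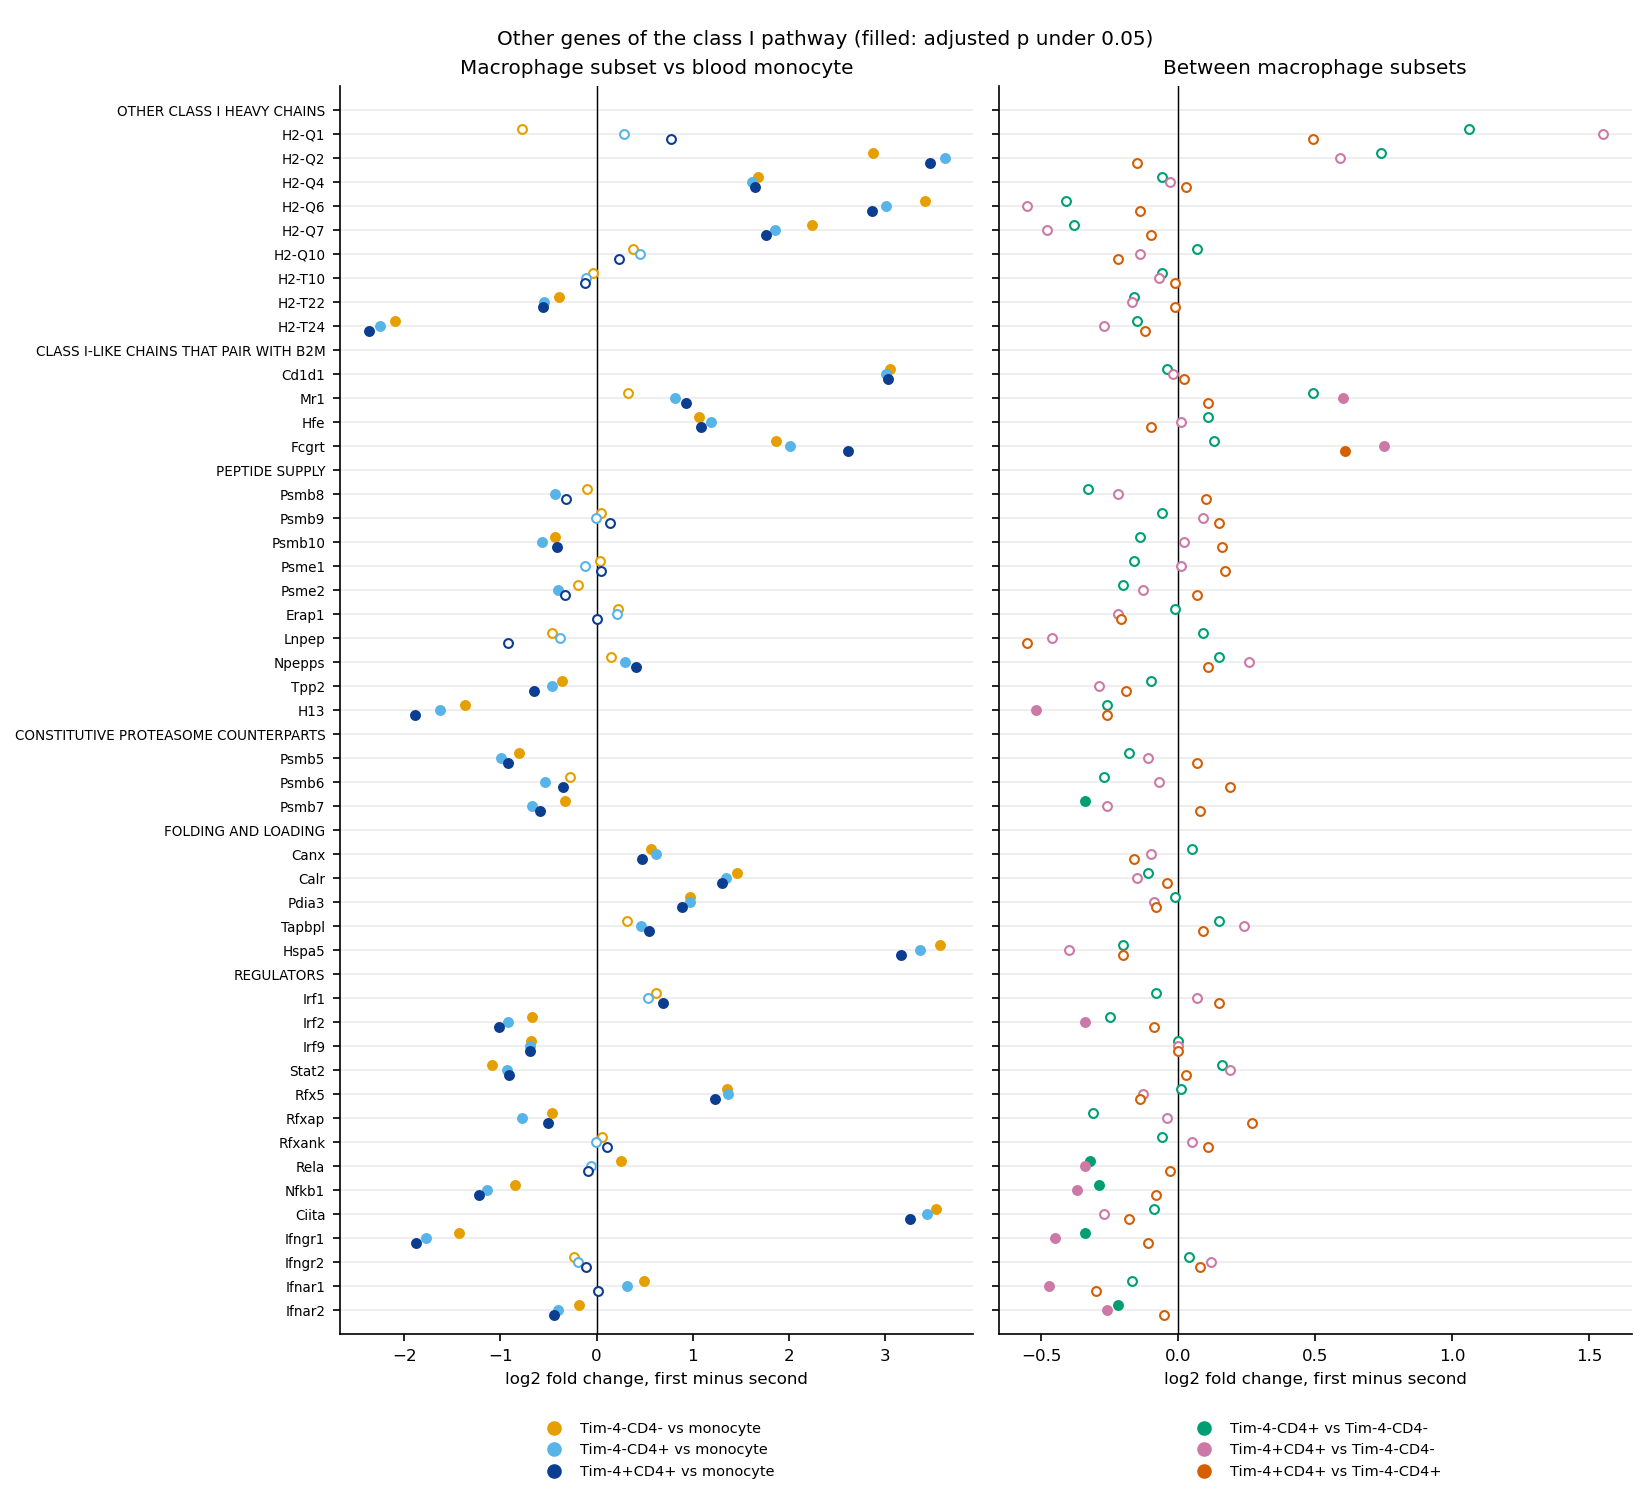
Log2 fold changes (x axis) of 45 of the 46 other class I pathway genes tested, grouped by list (y axis), in each macrophage subset against monocytes (left) and between the subsets (right), filled where the adjusted p was under 0.05. On the left the chaperones and class I-like chains lie mostly to the right of 0 and the constitutive proteasome subunits to the left, with Hspa5 at 3.57, 3.37 and 3.17, and on the right the filled points of Fcgrt, at 0.61 and 0.75, and Mr1, at 0.60, are the ones above 0.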

How the data were processed

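Reads had been quality-trimmed by the authors (Trimmomatic 0.36), mapped with STAR onto the GRCm38.p4 build, and counted per gene from unique alignments only (HTSeq 0.6.1p1, GENCODE vM11). They deposited raw counts, without normalization, beside the same counts divided by 1 size factor per library, a normalized signal that was used here only to check that the ratio of both is constant within a library. Every deposited gene had at least 16 reads over the libraries. Strand use in the count is not given in the sources used here.

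Counts were fitted with edgeR 4.0.16 in R 4.3.3 (quasi-likelihood test, TMM scaling, filterByExpr by population, no covariate) in 1 model of 15 libraries. P-values were adjusted over 15802 genes within each of 6 comparisons, with a threshold of 0.05. RPKM used union exon lengths of GENCODE M21, not the authors' annotation. Intervals are at 95%. The fit was tested on simulated data. Sequences came from RefSeq promoters (GRCm38.p6), where 8 of the 10 genes had an entry. Figures used matplotlib 3.10.9.

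Members, gene lists and the naming rule were chosen with earlier results of these data known. Named were the 10 genes, per list and comparison up to 4 genes with the largest called change and a mean of at least 1 CPM, Psmb8, Psmb9 and Psmb10, and the 5 genes most like H2-M2. Lnpep, Erap1, H2-T22, H2-Q2, Irf1, Irf9 and the promoter spacing were picked after seeing values. A gene of the regulator list enters the counts and is not reported here by itself. Alternatives were relative log expression and upper-quartile scaling, DESeq2 1.42.0, no filter, only the 2 populations compared, replicate blocks, and each library left out.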

Additional observations from a re-analysis of the deposited data

Results flagged for a closer look

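In 30 sets of 4 libraries, 10 genes in 3 macrophage subsets, the gap between an extreme library and its nearest neighbour was set against the range of the set on the log2 scale. It was above Dixon's critical value at 95% in 2 sets, and chance gives such a gap in about 1 of 20. H2-D1 in Tim-4-CD4- replicate 2 was at 3068 CPM, above 2645, 2612 and 2585 CPM in the other libraries, with a gap of 0.866 of the range. B2m in Tim-4-CD4+ replicate 3 was at 3235 CPM, above 3005, 2977 and 2970 CPM, with a gap of 0.865 of the range.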

How the results depend on the processing

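Of the 9 tested genes and the 46 other pathway genes, none that passed the test in the main analysis changed direction in any alternative run. Over all genes, the median log2 fold change of Tim-4+CD4+ macrophages against monocytes moved from 0.0992 to 0.214 under upper-quartile scaling. Between both Tim-4- subsets, 1 of the 9 genes passed instead of 0 when only the 2 populations were fitted, and 0 to 1 when each library was left out. Between Tim-4+CD4+ and, as reference, Tim-4-CD4- macrophages 0 passed instead of 1 under upper-quartile scaling and without the filter, and 0 to 1 when libraries were left out.

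Of the other pathway genes, 3 passed between both Tim-4- subsets under upper-quartile scaling instead of 5, 1 without the filter, and 1 to 5 when libraries were left out. Between the CD4+ subsets 0 passed instead of 1 in the fit of these 2 populations. The replicate numbers in titles and descriptions differ for Tim-4-CD4+ macrophages, and neither had every pair over 0.1, the limit set for pairing: deviations of same-numbered macrophage libraries correlated from -0.123 to 0.134 by title, with 2 of 12 pairs over 0.1, and from -0.089 to 0.161 by description, with 4 of 12 over 0.1, among them all 3 pairs of number 4 (0.128, 0.138 and 0.161). With a replicate block by title number, 1 of the other pathway genes passed between both Tim-4- subsets, and with a block by description number 3. DESeq2 called 917 of all genes between the CD4+ subsets, where edgeR called 327 higher and 212 lower.

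These uncalled differences changed sign. Under relative log expression scaling and DESeq2, H2-M3 between both CD4+ subsets was 0.00, Tap2 between Tim-4+CD4+ and, as reference, Tim-4-CD4- was 0.01, also in the fit of 2 populations, and Nlrc5 between both Tim-4- subsets was 0.00. Under upper-quartile scaling they were 0.03, 0.04 and 0.00, and Tapbp in Tim-4+CD4+ against monocytes was 0.05. With each library left out, H2-D1 in Tim-4-CD4- against monocytes ran from -0.22 to 0.09, Tap1 there from -0.53 to 0.00, and Tapbp against monocytes from -0.16 to 0.12, from -0.19 to 0.10 and from -0.14 to 0.15 in subset order. Between both CD4+ subsets, H2-K1 ran from -0.06 to 0.13, H2-M3 from -0.10 to 0.07, Tap1 from -0.12 to 0.00 and Tapbp from 0.00 to 0.11. Between Tim-4+CD4+ and, as reference, Tim-4-CD4-, H2-K1 ran from -0.16 to 0.00, H2-M3 from -0.05 to 0.12, Tap2 from -0.07 to 0.05 and Tapbp from -0.03 to 0.06. Between both Tim-4- subsets, H2-T23 ran from -0.03 to 0.07, Nlrc5 from -0.06 to 0.05 and Tapbp from -0.08 to 0.01. The cause was not tested. Without the filter, H2-T23 in Tim-4-CD4- macrophages against monocytes was 0.36 and just missed the test (adjusted p rounding to 0.05), and the other calls that the 9 genes gained or lost are given beside their values in the report. Depth limits H2-M2 in monocytes, with 9, 0 and 1 reads.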
